A study of Mus musculus with 12 samples.

Results

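RNA levels of 31 named genes of cholesterol and fatty acid synthesis were examined in V6.5 mouse embryonic stem cells, an established pluripotent line, in 3 groups of 4 RNA sequencing libraries each. The genes were chosen by symbol, and 30 of the 31 matched one of the 36521 rows of both gene tables. The RNA level of Hmgcs1 was not analysed here, and only its promoter was read. The rows comprised 18 genes of the sterol branch, 5 genes that control the pathway and 7 genes of the fatty acid branch. The row of Scd2 also covers Mir5114, and the row of Tm7sf2 also covers Vps51 and Zfpl1, so that these genes cannot be told apart within their rows. The first group was the unmodified parental line. In the Tet1kd and Tet2kd groups a hairpin RNA directed at Tet1 or at Tet2 was stably expressed from the plasmid pSUPER-puro. These cells came from clones that were selected with puromycin on SNL76/7-4 feeder cells and picked one by one. All groups were V6.5 cells grown with FBS and LIF. The parental group had no vector, no control hairpin and no selection, and the labels do not say how many clones stand behind each knockdown group. What the vector, puromycin or cloning did and what the loss of Tet RNA did cannot be told apart. The labels call the 4 libraries of a group biological replicates without naming separate cultures, so the p-values measure the spread between these libraries.

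Sterols and fatty acids are both built from acetyl-CoA. In the sterol branch acetyl-CoA is joined into mevalonate and isoprenoid units, the units are condensed to squalene, and squalene is closed into a ring and trimmed to cholesterol. In the fatty acid branch Acly and Acss2 supply acetyl-CoA, Acaca makes malonyl-CoA, Fasn builds palmitate, and Elovl6 and the Scd desaturases lengthen and desaturate it. Both branches are transcribed under the SREBP factors, encoded by Srebf1 and Srebf2, which Scap escorts from the endoplasmic reticulum to the Golgi for cleavage and which the Insig proteins hold back when sterols are plentiful. Srebf2 is best known for the sterol branch and Srebf1 for the fatty acid branch. Tet1 and Tet2 are dioxygenases that oxidise 5-methylcytosine in DNA.

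The targeted gene was lower in its own knockdown. In the authors' deposited table the mean of Tet1 was 27235 in parental and 6860 in Tet1kd cells (log2 fold change -1.99), and that of Tet2 was 7837 in parental and 3992 in Tet2kd cells (log2 fold change -0.97). Libraries held 14.6 to 31.6 M recovered reads in the parental group, and an estimated 15.9 to 39.7 M in Tet1kd and 14.4 to 31.1 M in Tet2kd. Within each group 2 libraries (a and b) were deeper than the other two (c and d), a split that was read from the values and not from the labels. Over 10537 genes, deviations from the group mean correlated at 0.368 to 0.584 between libraries of different groups on the same side of this split, and at -0.531 to -0.363 across it. All 7 embryonic stem cell markers listed were expressed at a mean of at least 2857. By the deposited test 3 of the 7 were higher in Tet1kd (as were 15.2% of all genes) and 1 in Tet2kd (as were 3.85%), and none was lower. Fibroblast markers, which feeder cells express, were present in all groups and moved with them. Their summed normalised count over all 10 markers was 5174 to 5589 in the parental, 3079 to 3388 in the Tet1kd and 6461 to 6881 in the Tet2kd libraries, and 9 of the 10 were lower in Tet1kd by the deposited test, with Lum at a mean of 0.41 there. In Tet2kd 3 of the 10 were higher (Acta2, Col1a1 and Col1a2), 1 was lower (Col3a1) and 6 passed in neither direction. The part of feeder RNA in the results below was not tested. In such bulk samples fewer cells of a type and less RNA per cell cannot be told apart. Of 8 adipocyte and hepatocyte markers, 7 had a mean under 10 in parental and in Tet1kd cells and 8 in Tet2kd cells, and Plin1, Alb and Ttr were at 0 in all groups.

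Promoter sequences were available from RefSeq (GRCm38.p6) for 25 of the 31 genes, with 33 start sites. The 250 bases before each start were searched on both strands for 5 motifs: CCAAT (bound by NF-Y), GGGCGG (the GC box of Sp1), CACGTG (an E-box that SREBP can bind), TCACNCCAC (a form of the sterol regulatory element) and TCANNCCA (a looser form, which contains every match of TCACNCCAC). CCAAT was found in 21 of the 33 windows (63.6%) and in 33.8% of all 32851 RefSeq windows of that length. GGGCGG was found in 24 (72.7%), against 32.7% of all windows. CACGTG was found in 5 (15.2%, against 6.02%), TCANNCCA in 6 (18.2%, against 13.3%) and TCACNCCAC in 1, that of Hmgcs1 (3.03%, against 1.05%). These are matches of letters and not measured binding sites. Other forms of the sterol regulatory element were not searched, so a window without a match may still hold one. Several genes with an entry, Dhcr7 among them, passed a test below, and the windows of only 4 are printed to show where these letters lie. They are Cyp51 (chr5:4104698-4104947, minus strand), Scap (the start site further along the plus strand of 2, chr9:110333106-110333355), Insig1 (chr5:28071162-28071411, plus strand) and Acly (chr11:100528001-100528250, minus strand). Each runs 5′ to 3′ up to the base before the start site, with matches to any of the 5 motifs in capitals.
Cyp51: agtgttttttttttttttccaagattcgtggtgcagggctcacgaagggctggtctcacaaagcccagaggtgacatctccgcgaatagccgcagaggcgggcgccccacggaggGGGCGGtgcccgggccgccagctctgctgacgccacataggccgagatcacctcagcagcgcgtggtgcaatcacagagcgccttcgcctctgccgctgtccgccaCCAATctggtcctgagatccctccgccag
Scap: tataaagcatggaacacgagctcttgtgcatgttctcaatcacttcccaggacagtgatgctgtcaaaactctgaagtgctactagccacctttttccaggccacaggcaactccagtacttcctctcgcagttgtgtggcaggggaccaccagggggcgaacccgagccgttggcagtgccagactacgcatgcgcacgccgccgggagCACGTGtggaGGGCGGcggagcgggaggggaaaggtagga
Insig1: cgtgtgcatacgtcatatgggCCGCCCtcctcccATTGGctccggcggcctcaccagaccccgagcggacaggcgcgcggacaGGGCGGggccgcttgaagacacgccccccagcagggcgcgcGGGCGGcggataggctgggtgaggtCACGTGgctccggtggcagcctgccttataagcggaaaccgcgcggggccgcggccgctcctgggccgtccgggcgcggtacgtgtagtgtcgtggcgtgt
Acly: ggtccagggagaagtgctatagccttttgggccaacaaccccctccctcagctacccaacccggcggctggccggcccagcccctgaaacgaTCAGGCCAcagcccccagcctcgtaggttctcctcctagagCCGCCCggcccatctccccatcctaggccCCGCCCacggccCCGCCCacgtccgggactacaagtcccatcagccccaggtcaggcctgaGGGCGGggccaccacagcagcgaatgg
Cyp51 had a CCAAT match 29 bases and a GGGCGG match 135 bases before its start. Scap had a CACGTG match 40 bases and a GGGCGG match 30 bases before this start. The other start of Scap had no match to any of the motifs searched. Insig1 had CACGTG 101 bases before its start, with a reversed CCAAT at 216 and GGGCGG matches at 126, 167 and 229 bases. Acly, alone of the 4, had a TCANNCCA match, 158 bases before its start, and no CACGTG or CCAAT in this window.

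In Tet1kd cells the sterol branch did not move in one direction. The authors' deposited table called 7 of the 30 members at an adjusted p below 0.05 (23.3%), while it called 30.4% of all 23120 genes tested, and 50.4% of those with a mean of at least 300, a level that all members but Idi1 and Fdps reach in both tables. The share among members is thus not above the background, which was 15.2% for higher and 15.3% for lower genes. In the sterol branch 2 of 18 genes rose, 2 fell and 14 did not pass, with a median log2 fold change of 0.0051 against -0.018 over all genes. The 2 that fell were Cyp51, the lanosterol demethylase of the ring-trimming steps, and Stard4, a carrier that moves cholesterol between membranes. Sqle, the squalene epoxidase, and Dhcr7, which reduces the last intermediate to cholesterol, rose. None of the 6 genes of the mevalonate and isoprenoid steps (Acat2, Mvk, Pmvk, Mvd, Idi1 and Fdps) passed, and their deposited log2 fold changes lay between -0.29 and 0.27. Limma on the recovered libraries called 10 of 25 members (40.0%), against 54.3% of all 14614 genes fitted. With a term for the deeper and shallower libraries it called 14 of 25, against 64.8%. The Tet1kd and parental libraries did not overlap for 7 of the 25 (28.0%), against 48.9% of all genes.

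Cyp51 (ENSMUSG00000001467, chromosome 5) had normalised counts of 3062, 3108, 3045 and 3031 in parental libraries a to d, 2444, 2260, 2221 and 2155 in Tet1kd libraries and 3536, 3837, 3705 and 3316 in Tet2kd libraries. All Tet1kd libraries lay below and all Tet2kd libraries above the parental range. These counts, like those that follow, are reads per library recovered from the deposited means, divided by the authors' size factors and set on 1 scale through the parental libraries that both tables share. The deposited log2 fold change was -0.43 in Tet1kd (adjusted p 1.9e-05 in the authors' deposited table) and 0.23 in Tet2kd (adjusted p 0.055, not past the test). With limma on the recovered libraries the Tet2kd difference was 0.23 ± 0.052 (SE, n = 4 per group, adjusted p 0.0095), so this call depends on the test.

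Stard4 (ENSMUSG00000024378) had normalised counts of 2060, 2134, 1822 and 1938 in parental, 1601, 1468, 1467 and 1340 in Tet1kd and 2108, 2187, 1945 and 1914 in Tet2kd libraries. The Tet1kd libraries were all below the others, whereas Tet2kd and parental libraries overlapped. The authors' deposited table gave log2 fold changes of -0.44 in Tet1kd (adjusted p 1.4e-05) and 0.036 in Tet2kd (adjusted p 1.0). Fdps, which condenses isoprenoid units to farnesyl diphosphate, had 326, 319, 303 and 360 in parental, 266, 257, 247 and 298 in Tet1kd and 404, 374, 329 and 384 in Tet2kd libraries. Every Tet1kd library of Fdps was below every parental library, yet the authors' deposited table gave an adjusted p of 0.077 for its log2 fold change of -0.29. Limma gave -0.29 ± 0.094 (SE, adjusted p 0.019).

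Dhcr7 had normalised counts of 2754, 2952, 2850 and 2669 in parental, 3241, 3461, 3240 and 3297 in Tet1kd and 3126, 2795, 2734 and 2959 in Tet2kd libraries. Tet1kd libraries were above all others and the other 2 groups overlapped. The authors' deposited table gave Dhcr7 a log2 fold change of 0.24 in Tet1kd (adjusted p 0.027) and 0.049 in Tet2kd (adjusted p 0.90). Sqle was at 2873 ± 119 in parental (SD, n = 4), 3354 ± 185 in Tet1kd and 3293 ± 90.7 in Tet2kd cells, with both knockdown groups above the parental range. Its deposited log2 fold changes of 0.22 and 0.20 had adjusted p of 0.032 and 0.16 in the authors' deposited table. The Tet1kd libraries of Sqle and Scd1 were recovered with a narrower limit on their spread, so their SD leans towards small values.

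In Tet2kd cells no sterol gene passed the authors' first deposited test, in which 5 of the 18 had an unadjusted p below 0.05. The authors' deposited table called 2 of the 30 members (6.67%), against 7.14% of all 22949 genes tested (3.85% higher and 3.29% lower) and 12.6% of those with a mean of at least 300. Of the 18 sterol genes 14 had a log2 fold change above 0. So had 11262 of all 22949 genes tested, and 3961 of the 8405 with a mean of at least 300. The median of the sterol genes was 0.15 against 0.0041 over all genes, and their range was -0.22 to 0.39. The highest was Idi1, the isopentenyl diphosphate isomerase, at 0.39 (adjusted p 0.50) on a mean normalised count of 57.6 in parental libraries. The second test that the authors deposited called 15 of the 30 members, against 18.2% of all genes and 38.3% of those with a mean of at least 300. In Tet1kd it also called 15 of the 30, against 39.2% and 68.7%. Limma called 7 of the 27 members whose libraries were recovered, against 18.5% of all genes, and 14 of the 27 with a term for the deeper and shallower libraries, against 36.8%. Without this term, in the sterol branch it called Acat2, Sqle, Cyp51 and Hsd17b7 higher. The parental and Tet2kd libraries did not overlap for 5 of the 27, which were Cyp51, Sqle, Nsdhl, Idi1 and Scd1, all higher, and the same held for 23.4% of all genes.

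**Figure D1:**
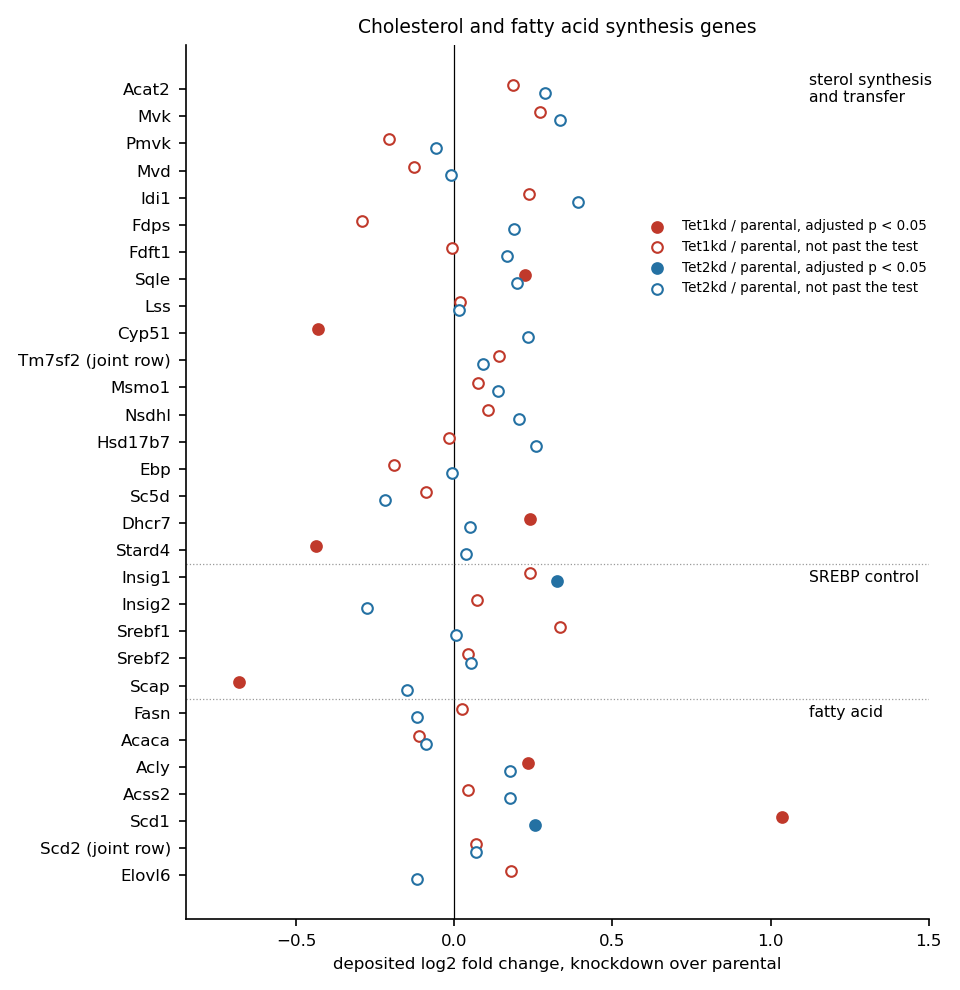
Deposited log2 fold change of each of the 30 members, Tet1kd over parental in red and Tet2kd over parental in blue, by branch. Filled points passed the deposited adjusted p of 0.05: 7 in Tet1kd, where Scd1 is highest at 1.04 and Scap lowest at -0.68, and 2 in Tet2kd (Insig1 and Scd1). Both comparisons use the same 4 parental libraries.

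Among the genes that control the pathway, Scap fell in Tet1kd cells and was the only 1 of the 5 past the deposited test there. Scap (ENSMUSG00000032485, chromosome 9), the escort of the SREBP precursors, had normalised counts of 1444, 1401, 1518 and 1583 in parental, 823, 885, 952 and 1049 in Tet1kd and 1194, 1284, 1404 and 1478 in Tet2kd libraries. No Tet1kd library reached the parental range, while the Tet2kd libraries overlapped it. For Scap the authors' deposited table gave a log2 fold change of -0.68 in Tet1kd (adjusted p 4.1e-12), a mean 62.3% of parental, and -0.15 in Tet2kd (adjusted p 0.33). Within the 2 deeper libraries of each group the Tet1kd difference was -0.74 and within the 2 shallower ones -0.63.

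Of the paralogous retention factors, Insig1 rose in Tet2kd by the deposited test and Insig2 passed it in neither comparison. Insig1 (ENSMUSG00000045294, chromosome 5), itself a known SREBP target, had 1898, 2022, 1707 and 1737 in parental, 2250, 2436, 1966 and 2041 in Tet1kd and 2568, 2431, 1958 and 2257 in Tet2kd libraries. Each knockdown group overlapped the parental range through its lowest library. Within each side of the depth split, however, the knockdown libraries lay above the parental ones. The log2 differences were 0.26 in Tet1kd and 0.35 in Tet2kd within the deeper libraries, and 0.22 and 0.29 within the shallower ones. The authors' deposited table gave log2 fold changes of 0.24 in Tet1kd (adjusted p 0.052) and 0.32 in Tet2kd (adjusted p 0.035). When single libraries were left out, the Tet2kd call was lost in 4 of 8 limma fits (without Tet2kd library a or b, or parental library c or d), with adjusted p of 0.0504 to 0.0672. These fits had no term for the depth split. Insig2 had 877, 782, 744 and 824 in parental, 946, 907, 838 and 702 in Tet1kd and 781, 646, 600 and 636 in Tet2kd libraries. In Tet2kd only the deepest library lay within the parental range. The deposited log2 fold changes of Insig2 were 0.072 and -0.28, neither past the test in the authors' deposited table (adjusted p 0.61 and 0.13).

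Srebf1 had normalised counts of 1578, 1785, 2136 and 1989 in parental, 1986, 2227, 2516 and 2711 in Tet1kd and 1778, 1654, 2012 and 2076 in Tet2kd libraries. In all 3 groups the 2 shallower libraries were higher than the 2 deeper ones. The authors' deposited table gave a log2 fold change of 0.33 in Tet1kd (adjusted p 0.072), and the difference was 0.33 within the deeper and 0.34 within the shallower libraries. The second deposited test and limma (0.33 ± 0.11, SE, adjusted p 0.019) both called it. In Tet2kd the deposited log2 fold change of Srebf1 was 0.0061. Srebf2 had 8054, 8038, 8976 and 9078 in parental and 8440, 8033, 9330 and 9642 in Tet2kd libraries, which overlapped. The Tet2kd libraries of Srebf2 were recovered with the narrower limit on their spread. Its 4 Tet1kd libraries were not recovered. The authors' deposited table gave log2 fold changes of 0.044 in Tet1kd and 0.054 in Tet2kd for Srebf2 (adjusted p 0.85 and 0.92).

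The largest change among the 30 members was in the fatty acid branch. Scd1 (ENSMUSG00000037071, chromosome 19), the stearoyl-CoA desaturase that makes oleate, had normalised counts of 3948, 4033, 3561 and 3554 in parental, 7932, 8541, 7103 and 7399 in Tet1kd and 4589, 4798, 4363 and 4270 in Tet2kd libraries. The 3 groups did not overlap. The authors' deposited table gave a 2.05-fold mean in Tet1kd (log2 fold change 1.04, adjusted p 1.4e-27) and a log2 fold change of 0.26 in Tet2kd (adjusted p 0.037). The Tet1kd difference was 1.04 within the deeper and 1.03 within the shallower libraries, and that of Tet2kd was 0.23 and 0.28.

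The row of the paralogue Scd2 had parental values of 20808, 21246, 19336 and 19187, and its knockdown libraries were not recovered. Its deposited log2 fold change was 0.067 in Tet1kd and 0.068 in Tet2kd, neither past the test in the authors' deposited table (adjusted p 0.71 and 0.84). Acly (ENSMUSG00000020917, chromosome 11), the citrate lyase that supplies cytosolic acetyl-CoA, rose in Tet1kd from a mean of 14925 to 17523 in the authors' deposited table (log2 fold change 0.23, adjusted p 0.014) and was at 0.18 in Tet2kd (adjusted p 0.16). The other five genes of this branch did not pass in either comparison. Fasn had log2 fold changes of 0.024 and -0.12 in Tet1kd and Tet2kd, and Acaca had -0.11 and -0.089. Elovl6 had 0.18 and -0.12, with adjusted p of 0.089 and 0.51 in the authors' deposited table. In Tet1kd 2 of the 7 genes thus rose and none fell, with a median of 0.067, and in Tet2kd 1 rose, with a median of 0.068.

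**Figure D2:**
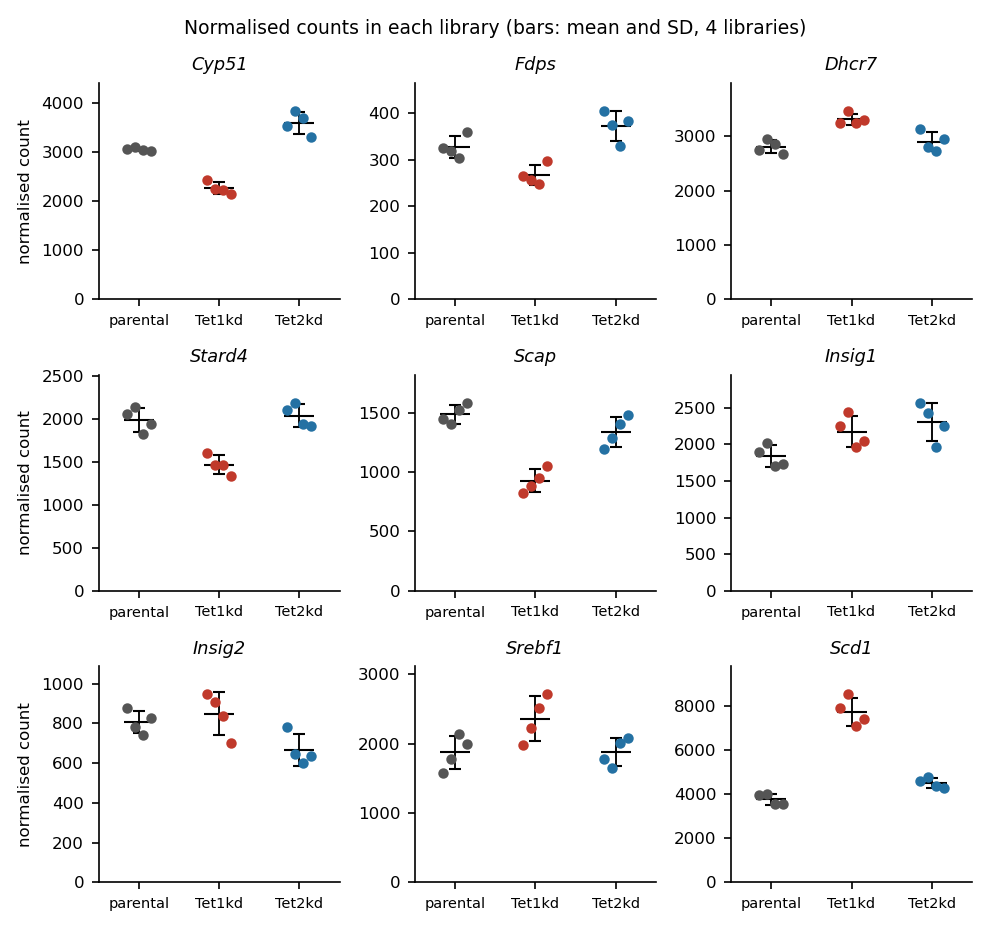
Normalised count of 9 members in each of the 4 libraries of each group, on the scale of the Tet1kd table and from 0; short bars mark the mean and whiskers the SD. The Tet1kd libraries of Scap sit between 823 and 1049, apart from the parental libraries. Those of Scd1, between 7103 and 8541, were recovered under a limit that by itself keeps them apart.

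The knockdown lines were also compared with each other, which the shared parental libraries do not enter as a reference. Limma on the recovered libraries called 10 of 25 members (40.0%), and it called 51.0% of all 14584 genes, so that the share among members lay below the background. Scd1 was higher in Tet1kd than in Tet2kd by 0.78 (95% interval 0.65 to 0.91), Insig2 by 0.35 (0.14 to 0.56), Srebf1 by 0.32 (0.097 to 0.55) and Dhcr7 by 0.19 (0.080 to 0.30) on the log2 scale. Of the 6 lower in Tet1kd, 5 were sterol genes, as were 18 of the 25 members compared. Cyp51 differed by -0.66 (-0.78 to -0.55), Fdps by -0.48 (-0.68 to -0.28) and Stard4 by -0.47 (-0.62 to -0.33).

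The other three lower in Tet1kd were Scap, with -0.53 (-0.71 to -0.36), and 2 genes close to the threshold. Hsd17b7, a ketoreductase of the ring-trimming steps, had 607, 567, 527 and 533 in parental, 636, 575, 490 and 506 in Tet1kd and 643, 728, 697 and 602 in Tet2kd libraries. Its difference of -0.28 (adjusted p 0.019) came from overlapping groups and was lost in 4 of 12 fits that left out 1 library each (without Tet1kd library c or d, or Tet2kd library b or c, with adjusted p of 0.0502 to 0.0658). These fits had no term for the depth split. The difference was -0.18 within the deeper and -0.38 within the shallower libraries, where the groups did not overlap. Ebp, the sterol isomerase, had 771, 807, 895 and 845 in parental, 712, 724, 796 and 677 in Tet1kd and 819, 860, 784 and 840 in Tet2kd libraries. Its difference of -0.18 (adjusted p 0.035) was lost in 6 such fits (without Tet1kd library a, b or d, or Tet2kd library a, b or d, with adjusted p of 0.0591 to 0.101). The call of Srebf1 was lost in 4 (without Tet1kd library c or d, or Tet2kd library a or b, with adjusted p of 0.0514 to 0.0672). The Tet1kd and Tet2kd libraries did not overlap for 6 of the 25 members (Scd1 and Dhcr7 higher, Cyp51, Fdps, Stard4 and Scap lower), as for 44.8% of all genes. For Scd1 the limit set in the recovery of its Tet1kd reads fixed this outcome. For Sqle, whose libraries lay above the parental range in both lines, the difference between them was 0.025, with an interval of -0.081 to 0.13, and for Insig1 it was -0.082 (-0.27 to 0.10).

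**Figure D3:**
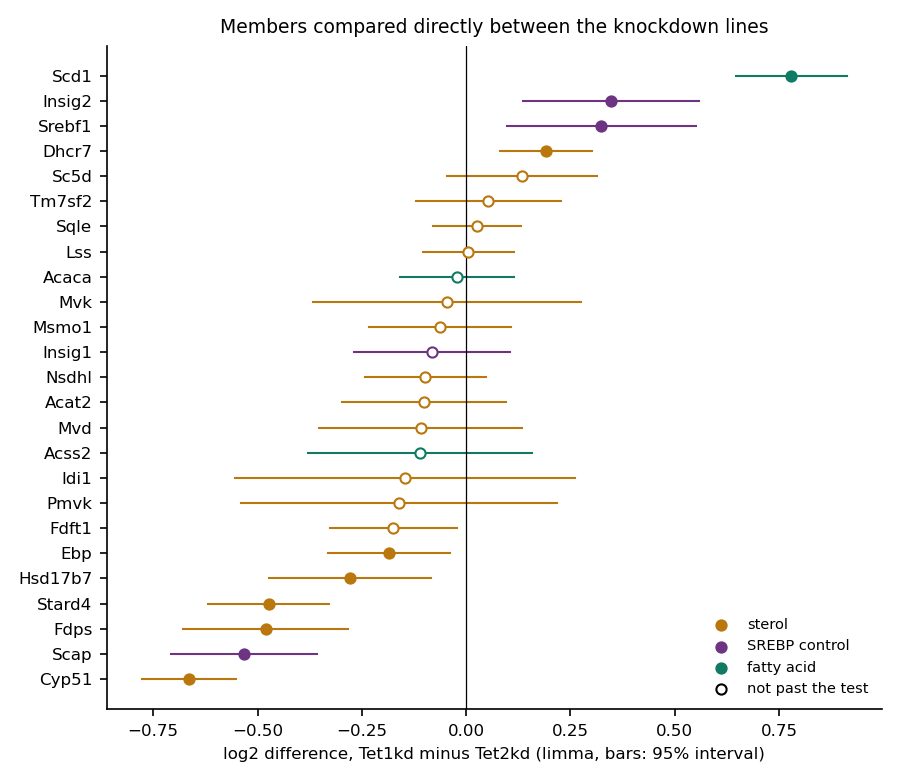
Difference of each recovered member between the knockdown lines, as log2 Tet1kd minus Tet2kd with its 95% interval from limma, coloured by branch; filled points passed an adjusted p of 0.05. Scd1 lies farthest to the right at 0.78 and Cyp51 farthest to the left at -0.66.

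Exon use was read from the deposited exon bins, each tested for a change relative to the other bins of its gene. Bins carry numbers but no positions in the tables used here, and their log2 ratios are printed as deposited, with the sign turned to knockdown over parental. The deposited ratio was multiplied by -2, -1, 0, 1 or 2, and no other factor was tried. Over 960 bins the parental share of a bin agreed best between the Tet1kd and Tet2kd tables at 2, the largest of these (median absolute log2 difference 0.0130, against 0.117 as deposited). The printed sizes may therefore be about 2 times too small, and sizes are set only against those of other bins. For Tet1kd the authors' deposited table called 18 of 513 member bins (3.51%), against 2.56% of all bins, and 23 of 509 in Tet2kd (4.52%), against 2.45%. Among bins with a mean of at least 50, which are called more often, the shares were 5.95% of member bins against 5.74% in Tet1kd and 7.88% against 6.17% in Tet2kd. At an adjusted p of 0.01 it called 13 member bins in Tet1kd and 7 in Tet2kd, 2.53% and 1.38%, against 1.20% and 1.16% of all bins. The bins called at 0.05 fell in 9 members in Tet1kd and 11 in Tet2kd.

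Fasn, whose gene level did not pass the test, held the most called bins, 4 of 47 in Tet1kd and 8 of 47 in Tet2kd. In Tet2kd the bins E006 and E005 of Fasn had deposited log2 ratios of -0.78 and -0.65 (adjusted p listed as 0 and 3.4e-09 in the authors' deposited table) on bin means of 348 and 377, sizes to which the same limit applies. The bins before and after them did not share this size: E004 was at -0.12 and E007 at -0.15, the latter with an adjusted p of 1.8e-09. In Tet1kd the same E006 and E005 were at -0.45 and -0.38 without passing the test (adjusted p 0.43 and 0.41). Bin E039 of Fasn, chosen for description after its values were seen, was lower in both comparisons, at -0.24 in Tet1kd (adjusted p listed as 0 in the authors' deposited table) and -0.26 in Tet2kd (adjusted p 0.00012). E002 was higher in both, at 0.14 each. These comparisons share the parental libraries.

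Other members had fewer bins past the test. Srebf2 had 3 in each comparison, none of them the same bin: E002 (-0.18), E012 (0.22) and E014 (-0.18) in Tet1kd, and E018 (0.15), E019 (0.20) and E021 (-0.21) in Tet2kd. Acly had 2 and 3, with E007 higher in both at 0.18 in the authors' deposited table. Lss, which closes squalene into lanosterol, had 3 in Tet1kd, of which E038 (0.36) and E039 (0.41) are the highest-numbered of its 39 bins. Dhcr7 had 2 in each, with E027 lower at -0.21 and -0.17. No bin of Scap passed in either comparison, and Scd1 had 1 of its 6 bins, E006 in Tet2kd, at -0.17 (adjusted p 0.038 in the authors' deposited table).

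**Figure D4:**
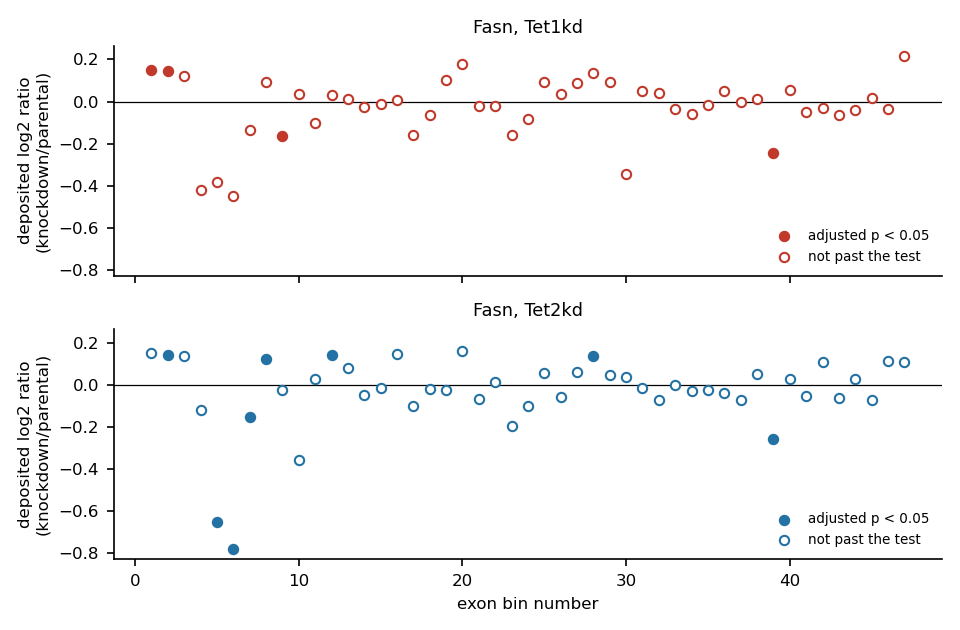
Deposited log2 ratio of each of the 47 tested exon bins of Fasn, knockdown over parental, against bin number, for Tet1kd (top) and Tet2kd (bottom). Filled points passed the deposited adjusted p of 0.05; E005 and E006 lie lowest in Tet2kd, at -0.65 and -0.78, and E039 is lower in both.

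Genes around the 2 branches were read from 5 lists, whose genes are not members. Of 80 related genes, 26 rose and 15 fell in Tet1kd and 8 rose and 1 fell in Tet2kd in the authors' deposited table. The 41 called in Tet1kd were 51.2% of the 80, against 30.4% of all genes and 50.4% of those with a mean of at least 300, and the 9 called in Tet2kd were 11.2%, against 7.14% and 12.6%. The counts of the single lists below are descriptions. Among 10 genes of SREBP processing and sterol sensing, 2 rose and 4 fell in Tet1kd. Ufd1l (-0.62) and Mbtps1 (-0.27) fell, and Mylip (0.81) rose. Mbtps1 encodes the first of the proteases that cleave SREBP.

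Among 16 genes of sterol traffic, storage and oxysterols 6 rose and 2 fell in Tet1kd, and 3 rose and none fell in Tet2kd. Abca1, which exports cholesterol to lipid-poor apolipoprotein, was at 629 ± 57.7 in parental (SD, n = 4), 235 ± 10.4 in Tet1kd and 960 ± 105 in Tet2kd cells, and the 3 groups did not overlap. Its log2 fold changes of -1.42 and 0.61 had adjusted p of 2.9e-31 and 2.6e-06 in the authors' deposited table. Abcg1, a second exporter, was at 450 ± 12.2, 975 ± 85.4 and 674 ± 23.0, and rose in both comparisons (1.11 and 0.58). Compared directly by limma, Tet1kd was lower than Tet2kd in Abca1 by -2.02 (95% interval -2.21 to -1.83) and higher in Abcg1 by 0.53 (0.38 to 0.68). Ch25h, which makes an oxysterol, fell in Tet1kd from a mean of 22.0 to 1.28. The fibroblast markers were lower in the Tet1kd libraries too, and the part of feeder RNA in the changes of this list was not tested. Scarb1 (0.47) rose in Tet1kd and Soat1 (0.26), which esterifies cholesterol, in Tet2kd.

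Of 11 genes listed under the isoprenoid side branches 1 rose and 4 fell in Tet1kd, and none passed in Tet2kd. The 1 that rose was Acat1 (0.56), which encodes a mitochondrial thiolase and not an enzyme of these side branches. Pdss1 (-0.53), which makes the side chain of ubiquinone, Fnta (-0.39), a subunit of protein prenyltransferases, and Icmt (-0.36) fell.

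Of 20 genes of fatty acid elongation, desaturation and supply, 7 rose and 2 fell in Tet1kd, and 3 rose in Tet2kd. Elovl7, an elongase, rose from 314 to 1064 in Tet1kd (log2 fold change 1.76, adjusted p 2.4e-13 in the authors' deposited table) and by 0.47 in Tet2kd. Fads1 (0.69), a desaturase of polyunsaturated fatty acids, and Oxsm (0.63), of mitochondrial synthesis, rose in Tet1kd. Mlxipl, the carbohydrate-responsive factor of lipogenic genes, fell in Tet1kd (-0.85) and rose in Tet2kd (0.52). Slc25a1, the citrate carrier that feeds Acly, rose in Tet2kd (0.44, adjusted p 9.7e-06 in the authors' deposited table).

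Of 23 genes of fatty acid activation, lipid assembly and oxidation 10 rose (43.5%, against 15.2% of all genes) and 3 fell (13.0%, against 15.3%) in Tet1kd. Of the 8723 genes with a mean of at least 300, 2193 rose and 2202 fell there. Either way 56.5% of the list passed, against 50.4% of these more abundant genes. The median of the list was 0.36 against -0.018 over all genes, and 2 of its genes rose in Tet2kd. Lpin1 (0.78), Cpt1a (0.72), Cpt2 (0.66) and Agpat3 (0.62) rose in Tet1kd in the authors' deposited table. Cpt1a and Cpt2 carry fatty acids into mitochondria for oxidation, and Lpin1 and Agpat3 act in the assembly of glycerolipids. Ppard (0.42) and Acsl4 (0.29) rose in Tet2kd.

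**Figure D5:**
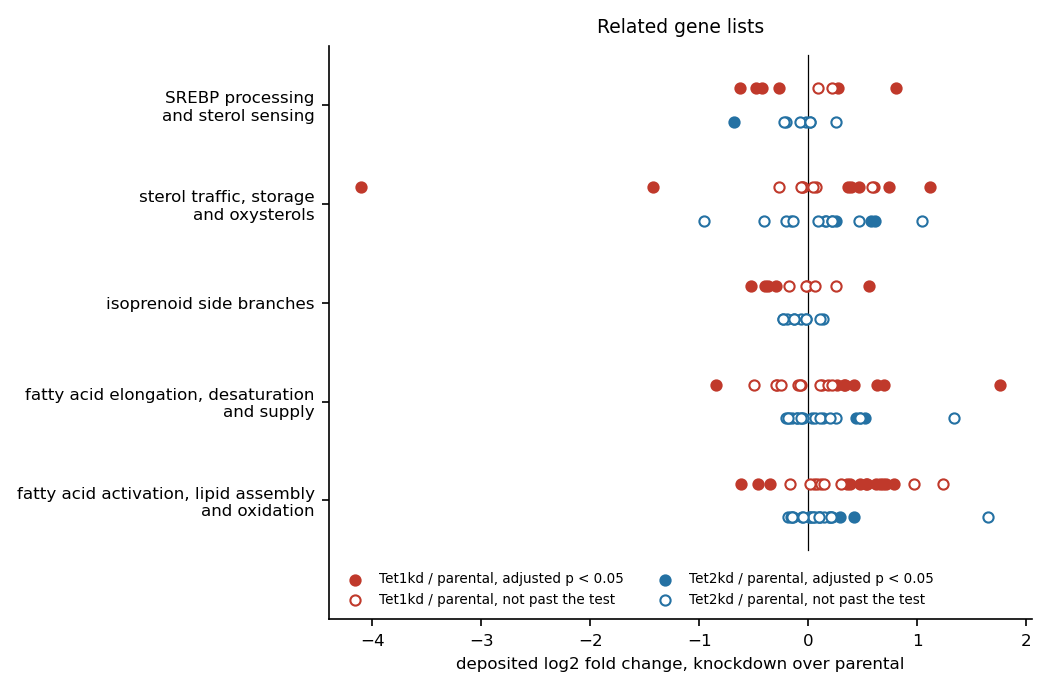
Deposited log2 fold change of the related genes with a row of their own, by list, Tet1kd in red and Tet2kd in blue; filled points passed the deposited adjusted p of 0.05. In the second list Ch25h lies at -4.10 and Abca1 at -1.42 in Tet1kd, and Abca1 at 0.61 in Tet2kd.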

How the data were processed

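The submitters' processing notes name TopHat2 version 2.0.0, SAMtools version 0.1.18, DESeq without a version, and the builds mm9 and NCBIM37. Per the file headers, the authors deposited for each gene the mean normalized signal of each group, a fold (ratio) and its log2, and p-values, raw and adjusted, of 2 tests. For exon bins the authors deposited, per the file headers, a mean signal, a log2 ratio, a p-value and a dispersion score of each bin, and the direction of the ratio was checked against the gene means.

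No values of single samples are in the tables. Reads per library were therefore recovered from the means: few means can arise from whole reads at 4 fixed size factors, and a gene was kept where 1 set of reads within 60% (or else 20%) of its group mean matched the printed digits. This gave 30 members in parental, 25 in Tet1kd and 27 in Tet2kd. Of 41630 parental answers from 1 table alone, 41628 equalled those from both. Libraries are lettered by size factor (a deepest).

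Calls use the first deposited adjusted p at 0.05. Limma (version 3.58.1, R version 4.3.3, with an intensity trend) was fitted on log2(normalized count + 0.5) of genes with a mean of at least 10, with Benjamini-Hochberg adjustment over all genes. It was also run on simulated data, in which libraries varied independently. The simulation lacked the correlated deviations of the deeper and shallower libraries, so it does not show how limma performs under that split. Without counts per sample, the planned count tests were not run. Alternatives were the second deposited test, a threshold of 0.01, a pseudocount of 5, no filter, median centring, a term for the 2 deeper and 2 shallower libraries, and leaving out each library. Values in every library are given for members past the deposited test with a log2 fold change of at least 0.5, the member with the smallest adjusted p of each branch, those past the direct test and the paralogue pairs; up to 4 genes per related list and up to 3 bins per member are named by smallest adjusted p. The members and lists were chosen with earlier results of these data known. Gene names matched 31278 of 36521 rows. One related gene that this rule names is not reported here.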

Additional observations from a re-analysis of the deposited data

Results flagged for a closer look

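Members differed between the knockdown lines in the direct limma test, as Tet1kd minus Tet2kd on the log2 scale: Scd1 (0.78), Insig2 (0.35), Srebf1 (0.32) and Dhcr7 (0.19) were higher in Tet1kd, and Cyp51 (-0.66), Scap (-0.53), Fdps (-0.48), Stard4 (-0.47), Hsd17b7 (-0.28) and Ebp (-0.18) were lower. Cyp51, Fdps, Stard4 and Hsd17b7 lay below the parental means in Tet1kd and above them in Tet2kd, and Insig2 the other way round, but for Stard4 (1988 in parental and 2039 in Tet2kd), Hsd17b7 (558 in parental and 552 in Tet1kd) and Insig2 (807 in parental and 848 in Tet1kd) one of these steps was smaller than the SD between libraries. Of 82 groups of 4 member libraries, 2 held a library far from the other three by Dixon's criterion, which chance passes in about 1 in 20 groups. Library d of the parental group had 41.7 normalised counts of Idi1, where the others had 61.9 to 63.7. Library b of Tet1kd had 1236 normalised counts of Nsdhl, where the others had 1100 to 1110.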

How the results depend on the processing

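No paired analysis was possible because the columns carry group means without the numbers of the samples. Members called in Tet1kd numbered 7 by the first deposited test, 15 by the second, 4 at 0.01, 14 by limma with a term for the library split, and 8 to 10 by limma leaving out 1 library. In Tet2kd they numbered 2, 15, 0 (also at 0.01) and 14, with 7 by limma, 7 at a pseudocount of 5, 5 without a filter, 5 after median centring and 3 to 6 leaving out 1 library. Called exon bins in Tet2kd numbered 23, and 7 at 0.01. The direct comparison gave 10, and 7 to 12 under its alternatives (7 to 11 leaving out 1 library). The cause of these moves was not tested. Scd1, Scap, Stard4 and Cyp51 kept their Tet1kd calls in all 15 alternatives. With the split term limma called 64.8% of all genes in Tet1kd and 36.8% in Tet2kd, against 54.3% and 18.5% without it. At 0.01 the deposited test called 23.4% and 4.25%, without a filter limma called 38.0% and 11.6%, and leaving out 1 library 50.0% to 52.2% and 13.5% to 16.6%. In Tet2kd it called 18.6% at a pseudocount of 5 and 18.6% after median centring. In the direct comparison it called 51.0% of all genes, 35.8% without a filter, 62.1% with the split term and 47.0% to 50.8% leaving out 1 library. For single named members 384 settings left direction and call as they were, 58 added a call, 23 removed one and 6 turned the sign of an uncalled difference. These were Srebf1 in Tet2kd after median centring (-0.0041) and in 4 fits without 1 library (-0.071 to -0.0094), where the range was -0.071 to 0.076, and Stard4 in Tet2kd without parental library c (-0.0045, up to 0.072 without others). Depth limits Idi1 most, and the libraries of the most abundant members, such as Fasn, were not recovered in the knockdown groups.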
